A study of Mus musculus with 26 samples.

Results

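The comparison described here sets OT-1 thymocytes against F5 thymocytes at early positive selection, the first of the 3 stages sorted. It uses 6 of the 26 libraries of the series, 3 per line, and the 16372 of 46517 gene symbols that had a normalized count of at least 10 in at least 2 of the 26 libraries. The libraries were chosen by the labels alone, and no measured value entered the choice. The series holds bulk RNA-seq of thymocytes from 3 TCR transgenic lines, each sorted into 3 stages, and asks how self-reactivity relates to the pace of positive selection. The OT-1 libraries came from OT-1tg Rag2KO mice and the F5 libraries from F5tg Rag1KO mice. Both lines are labelled with the strain C57/BL6, and both populations were sorted from thymus as CD4+CD8+CXCR4+CCR7- cells. No marker of TCR signalling was part of this sort, so cells that had not yet received a selecting signal may be included. The methods of the study give an age of 3 to 10 weeks for its mice. Both genotypes lack recombination, so that nearly all of their thymocytes carry the transgenic receptor, and a different Rag gene was targeted in each. The OT-1 Rag2KO mice came from a commercial colony whose strain name records a 129S6 origin, and the Rag1KO allele has a 129S7 origin. The receptor, the deleted Rag gene and the origin of the mice change together between the lines, so their parts in any difference below cannot be told apart. TG6 thymocytes of the same stage, a line of low self-reactivity, are given as a reference. They came from TG6tg H2b/d mice of the cross C57/BL6 x B6.C-H2d/bByJ, so they carry another MHC haplotype beside H2b, and their genotype label lists no Rag deletion.

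Positive selection rescues CD4+CD8+ thymocytes whose TCR binds self peptide on MHC weakly enough to avoid deletion. The signal passes through Lck, Zap70 and the adaptor Lat to calcium and ERK, raises early response genes such as Egr1 and Nr4a1, and is damped by the surface protein CD5 and by Dusp and Sprouty proteins. Cells then lose the cortical receptor CXCR4, gain the medullary receptor CCR7, choose the CD8 lineage through Runx3 or the CD4 lineage through Zbtb7b, and acquire S1pr1 for exit. OT-1 recognizes an ovalbumin peptide on H2-Kb and F5 an influenza nucleoprotein peptide on H2-Db, and the study places OT-1 above F5 in self-reactivity.

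The 6 libraries had totals of 16353254 to 18041534 normalized counts, with 17474974 as the lowest total of OT-1 and 16785338 as the highest of F5. Reads per library, estimated from the lowest values, numbered 16846971 to 17968206 and so depth was similar. All 8 defining genes of CD4+CD8+ thymocytes were present in all 6 libraries. Libraries of a line correlated at 0.972 to 0.977 on the log2 scale across the genes tested, and libraries of different lines at 0.945 to 0.961. OT-1 replicate 3 was the OT-1 library closest to F5 and F5 replicate 1 the F5 library closest to OT-1. The labels give 3 samples per group and do not name the animals, so p-values measure a spread between samples. That spread was pooled over all 9 groups of the series and is not that of the 6 libraries alone.

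Both targeted genes still had reads. Rag1 (chromosome 2, 101638282 to 101649501) had 5183, 4303 and 6987 normalized counts in the OT-1 libraries and 10835, 15148 and 16266 in the F5 libraries. Rag2 had 183, 176 and 291 in OT-1 and 669, 1434 and 1448 in F5. Each gene was lower in every OT-1 library than in any F5 library, but neither passed the test (limma adjusted p = 0.34 and 0.12). A disrupted allele can still be transcribed and its reads are counted under the same symbol, so these levels do not check the labels. The receptor segments do separate the lines. Trbv12-1, a beta chain segment, had 27570.2, 29227 and 28784 in OT-1 and was at 0 in all 3 F5 libraries, which makes it at least 9509-fold higher in OT-1 against a floor of 3 normalized counts per library. Trav6-1, an alpha chain segment, had 1669.9, 1943 and 2171 in F5 and was at 0 in all 3 OT-1 libraries, at least 643-fold higher in F5. Trbv16 had 814, 1094 and 1058 in F5 and at most 2.01 in OT-1. Trav14d-1 and Trav14n-1 had the same values in every library, 4369, 4857 and 3537 in OT-1 and 23.4, 27.1 and 32 in F5, so the reads of these near-identical segments were not resolved.

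The 2 populations differed widely. Limma on log2(normalized count + 1), fitted over all 9 groups of the series, called 2077 genes at a Benjamini-Hochberg adjusted p under 0.05, which is 12.7% of those tested, with 1278 higher in OT-1 (7.81%) and 799 lower (4.88%). Of the called genes, 588 were higher and 275 lower by more than 1 on the log2 scale (5.27% of all genes together), and 288 higher and 102 lower by more than 2. The 3 OT-1 values did not overlap the 3 F5 values for 5910 genes (36.1%), with OT-1 higher in 20.2% and lower in 15.9% of all genes, so separation of the groups alone is common in these data. With libraries scaled to a common total, the split of calls turned from 1278 higher and 799 lower to 1009 higher and 1301 lower, and the median over all genes moved from 0.00 to −0.10. Small differences of one direction should be read against that shift. Leaving out 1 library changed the count by more than 1.5 times in 3 cases, with 1282 genes without OT-1 replicate 2, 1324 without F5 replicate 2 and 1320 without F5 replicate 3. Without OT-1 replicate 3 and F5 replicate 1 together the count was 1857, of which 1529 were among the 2077.

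**Figure D1:**
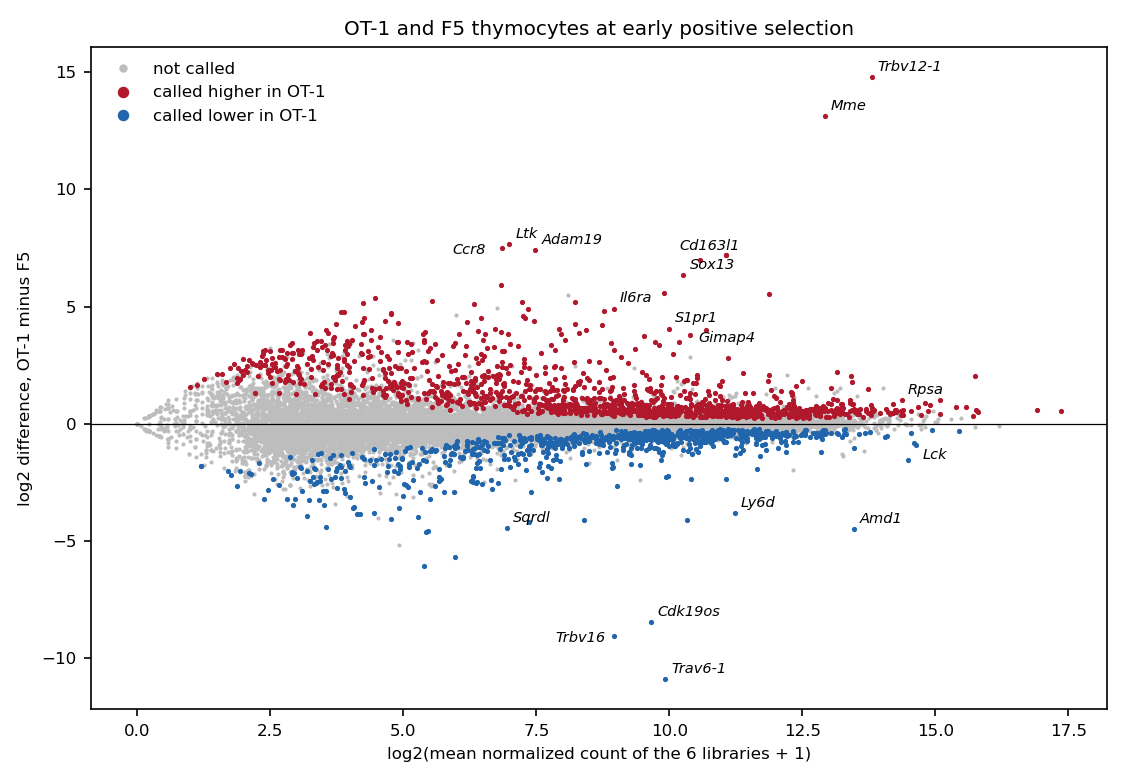
Difference between OT-1 and F5 (log2 of normalized count + 1, y axis) against the mean level over the 6 libraries (log2, x axis) for the 16372 genes tested. Red points are the 1278 genes called higher in OT-1, blue points the 799 called lower and grey points were not called. Trbv12-1 and Mme lie highest, and Trav6-1, Trbv16 and Cdk19os lowest.

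The largest difference outside the receptor segments belonged to Mme, which encodes the surface peptidase CD10 (chromosome 3, 63241537 to 63386030). It had 15793, 16416 and 14160.4 normalized counts in OT-1, 2.06, 0 and 0.684 in F5 and 0 in all 3 TG6 libraries. The fitted difference was 13.12 on the log2 scale (SE 0.50, limma adjusted p = 5.6e-14), a value that depends on the pseudocount because F5 was near 0. Ltk, a receptor tyrosine kinase, had 258, 240.4 and 258 in OT-1 and 0, 0 and 0.989 in F5. In TG6 it had 2.08, 1.05 and 135, so 1 of those 3 libraries stood apart. Ccr8, a chemokine receptor, had 263, 194 and 232 in OT-1 and 0, 0 and 0.971 in F5. Adam19, a metalloprotease, had 483, 366 and 213 in OT-1 and 0.839, 3.33 and 0 in F5. All 4 were at or near background in F5 and well above it in every OT-1 library. Cd163l1, a scavenger receptor family member, had 3248, 2689 and 3145 in OT-1 and 31.2, 20.3 and 19.4 in F5 (log2 difference 6.97, SE 0.37, limma adjusted p = 2e-11). The transcription factor Sox13 had 2448, 2472 and 2339 in OT-1 and 38.8, 35.4 and 17.3 in F5 (log2 difference 6.34). Il6ra, the IL-6 receptor alpha chain, had 1063, 982 and 828 in OT-1 and 35.9, 27.3 and 29.5 in F5 (log2 difference 4.91, SE 0.27, limma adjusted p = 2.9e-11). The other genes of the 10 with the largest difference, among called named genes without overlap and with a mean of at least 100 in the higher line, were Olfr524 (5.92), the phospholipase Plch1 (5.21) and the heparan sulfate sulfotransferase Hs3st3b1 (5.18). Each of the 10 kept its call under all 18 alternatives.

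In the other direction, Amd1, the S-adenosylmethionine decarboxylase of polyamine synthesis, had 1056, 1041 and 794 normalized counts in OT-1 and 22312, 20963 and 21638 in F5, with 599.7, 629 and 849.7 in TG6 (log2 difference −4.50, SE 0.18, limma adjusted p = 1.1e-13). F5 thus stood apart from both other lines. Amd2 had 16, 32.1 and 6.9 in OT-1 and 329, 357 and 244 in F5, but it is a near copy of Amd1 and may hold some of its reads. Cdk19os, annotated antisense to Cdk19 and close to Amd1, had 1.79, 3.61 and 6.2 in OT-1, 1556, 1618 and 1643 in F5 and 3.55, 0.892 and 2.61 in TG6 (log2 difference −8.47). Whether reads were counted by strand is not given in the sources used here, so reads of Cdk19 and Cdk19os cannot be separated with certainty, and Cdk19 itself differed by −0.51. Sqrdl, the sulfide quinone oxidoreductase, had 17, 8.95 and 5.73 in OT-1 and 236, 214 and 254 in F5 (log2 difference −4.47). Ly6d, a surface protein of early lymphoid progenitors, had 296, 319 and 327 in OT-1 and 4124, 4248 and 5048 in F5 (log2 difference −3.82, SE 0.68, limma adjusted p = 0.00047). The kinase Zak (−2.78), the tetraspanin Tspan2 (−2.66), the inhibitory receptor Lag3 (−2.59), Jmjd7 (−2.55) and the cytochrome Cyp4f16 (−2.53) completed the 10 lower genes by the same rule. Gm28042, whose start lies inside Jmjd7, differed by −2.94, so the reads of this pair may be shared. Tspan2 was not called without F5 replicate 2, or without OT-1 replicate 3 and F5 replicate 1 together (limma adjusted p = 0.053 in both).

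Genes that respond to TCR signals were more often higher in OT-1, with a median log2 difference of 0.95 over 34 genes against 0.00 over all genes. Of the 34, 10 were called higher (29.4%, against 7.81% of all genes), 1 was called lower and 23 were not called. The orphan nuclear receptor Nr4a3 had 2005, 4245 and 255 normalized counts in OT-1 and 298, 47.4 and 107 in F5. The groups overlapped, because OT-1 replicate 3 lay below F5 replicate 1. Its call (log2 difference 3.48, SE 1.09, limma adjusted p = 0.038) was lost under 7 of 18 alternatives. Irf4, a transcription factor whose level follows signal strength, had 206, 186 and 189 in OT-1 and 51.6, 32.9 and 26.2 in F5, with no overlap (log2 difference 2.41, limma adjusted p = 2.9e-06). Cd40lg had 50, 61.2 and 43.4 in OT-1 and 11.7, 3.87 and 2.91 in F5 (log2 difference 3.06, limma adjusted p = 0.00013). Gadd45b (2.05), Itm2a (1.84), Junb (1.61), Pdcd1 (1.59), Rel (0.96), Nfkbid (0.89) and Sh2d2a (0.55) were also called higher. The count of higher calls was 14 without OT-1 replicate 3 and F5 replicate 1 together and 6 without either OT-1 replicate 2 or F5 replicate 2. Lag3 went the other way, with 26.7, 17.6 and 24.8 in OT-1 and 102, 236 and 118 in F5.

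Commonly used reporters of TCR signalling were among the genes that were not called. Nr4a1 had 16128, 14649.5 and 6006 in OT-1 and 9595, 2806 and 3371 in F5, and OT-1 replicate 3 lay within the F5 range (log2 difference 1.32, SE 0.69, limma adjusted p = 0.23). Egr1 had 1901, 1521 and 1133 in OT-1 and 726, 1185 and 1071 in F5 (log2 difference 0.61, limma adjusted p = 0.27), and Egr2 had 166, 116 and 136 in OT-1 and 111, 113 and 88.6 in F5 (log2 difference 0.41). Cd5, whose surface level is used as a measure of self-reactivity, had 11789.7, 11682 and 12134 in OT-1 and 10035, 10649.6 and 8468 in F5. Every OT-1 library was above every F5 library, but the difference was 0.29 (SE 0.18, limma adjusted p = 0.33). Cd69 had 760.4, 796 and 1533 in OT-1 and 633, 634 and 604 in F5, again with no overlap (log2 difference 0.64, limma adjusted p = 0.2). Myc had 226, 367 and 400.4 in OT-1 and 398, 529 and 465 in F5, and was not called (log2 difference −0.52, limma adjusted p = 0.37).

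Feedback inhibitors of ERK had a median log2 difference of 1.03 over 12 genes, with 5 called higher in OT-1 (41.7%, against 7.81% of all genes) and none lower. Dusp4, a nuclear MAP kinase phosphatase, had 970.2, 919 and 972 normalized counts in OT-1 and 187, 136 and 89.3 in F5 (log2 difference 2.85, SE 0.55, limma adjusted p = 0.0011). Dusp10 had 18195, 22225 and 5429.7 in OT-1 and 4419.8, 2322 and 2245 in F5, with OT-1 replicate 3 only just above F5 replicate 1 (log2 difference 2.19, limma adjusted p = 0.029). Spred1 had 1098, 1048 and 1064 in OT-1 and 690.1, 792 and 586 in F5 (log2 difference 0.64, limma adjusted p = 0.0071), and the related Spred2 differed by 0.50. Spry4 was low in both lines, with 18, 13.1 and 45.4 in OT-1 and 1.95, 7.74 and 0 in F5. Dusp10 lost its call under 5 alternatives, Spry4 under 2 and Spred1 under 1, and 3 of the 5 were called without F5 replicate 3.

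Among 39 proximal signalling genes, 9 were called higher in OT-1 (23.1%, against 7.81% of all genes) and 2 lower (5.13%, against 4.88%), and the median was 0.06. The 2 lower ones were the kinase Lck, with 17055, 17129.5 and 19678 normalized counts in OT-1 and 30659.5, 32247 and 31881 in F5 (log2 difference −0.82, SE 0.07, limma adjusted p = 1e-07), and the diacylglycerol kinase Dgkz, with 12884, 13492 and 14423 in OT-1 and 19461, 21218 and 20319.8 in F5 (log2 difference −0.58, limma adjusted p = 0.00014). Fyn, the other Src family kinase of thymocytes, went the opposite way, with 5521, 6370.2 and 4457 in OT-1 and 4259.9, 3446 and 3106 in F5 (log2 difference 0.59, limma adjusted p = 0.018). Fyn lost its call under 5 alternatives, whereas Lck and Dgkz kept theirs under all 18. The adaptor Dok2 (0.63), Prkcq (0.56), Ubash3b (0.55), Malt1 (0.45), Ptpn2 (0.40), Csk (0.38), Rasgrp1 (0.35) and Zap70 (0.27) were higher by small amounts. With total scaling, 4 genes of the list were called higher and 6 lower, and the median was −0.04, so the direction of the list depends on the scaling. The 9 higher calls became 5 without OT-1 replicate 1, 3 without OT-1 replicate 2, 2 without F5 replicate 2 and 3 without F5 replicate 3.

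**Figure D2:**
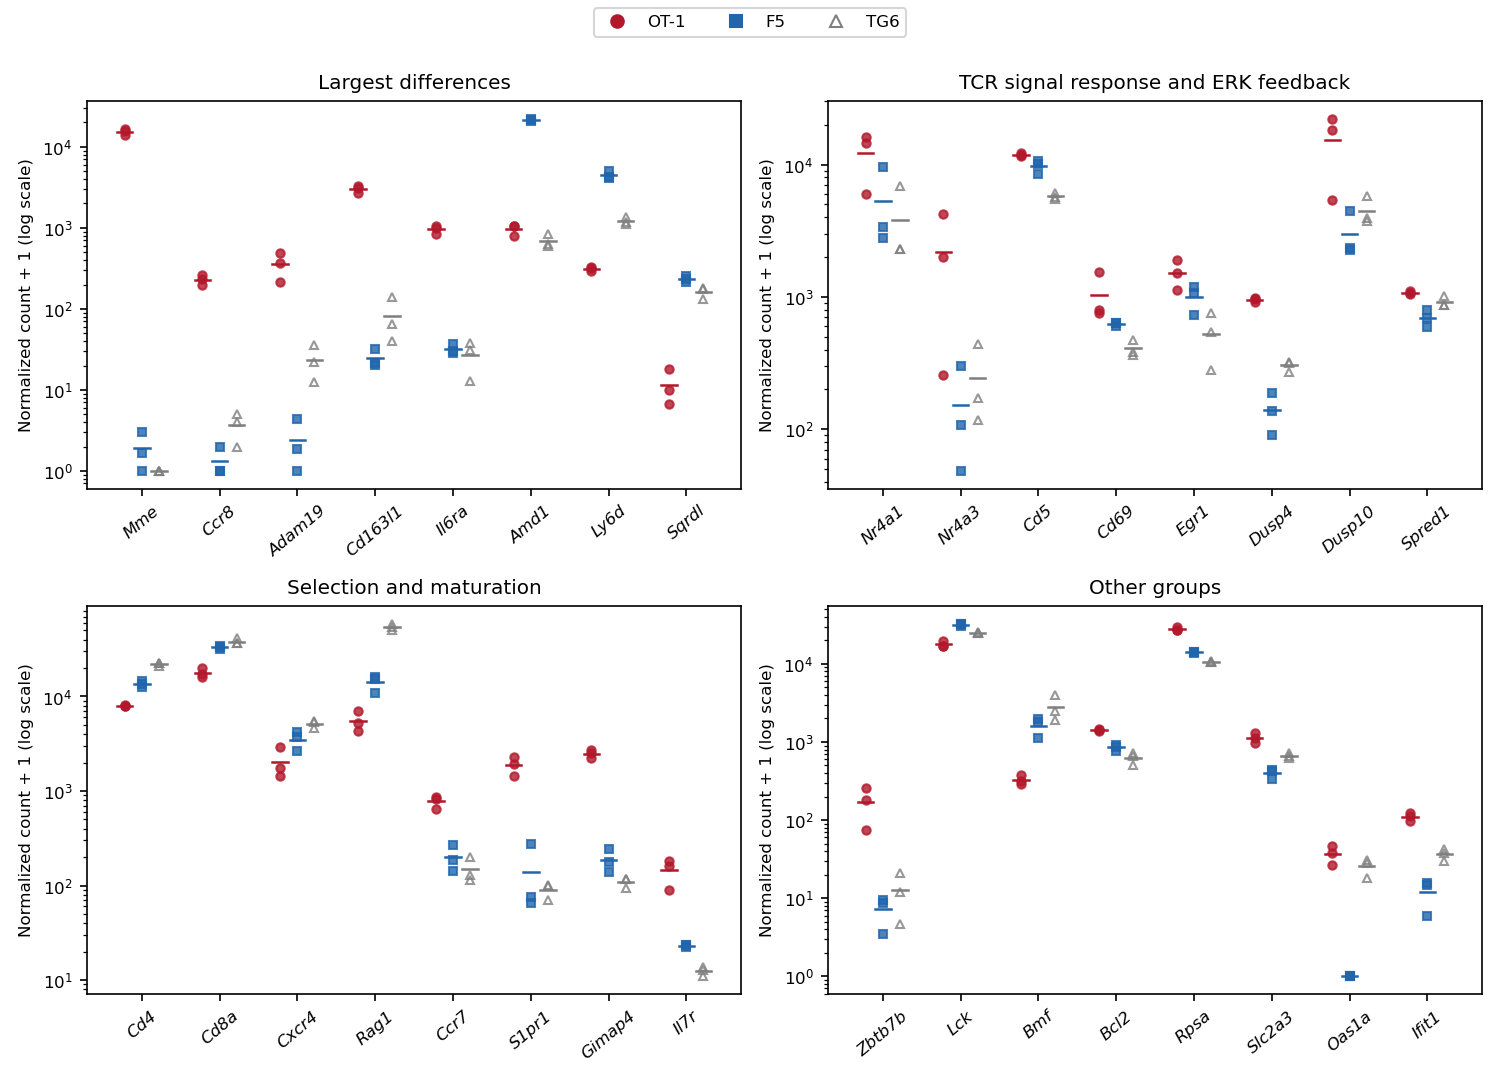
Normalized count + 1 (log scale, y axis) of 32 named genes in each library at early positive selection, with OT-1 as red circles, F5 as blue squares, TG6 as open grey triangles and short lines at the mean of 3 libraries. The OT-1 and F5 points of Mme, Amd1 and Gimap4 lie far apart, whereas those of Nr4a1, Nr4a3, Egr1 and Cxcr4 overlap.

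Genes named as markers of the stage before selection were in part lower in OT-1. The 11 genes named by the study from public microarrays as markers of preselection thymocytes, and not from these samples, had a median log2 difference of −0.78, with 7 called lower (63.6%, against 4.88% of all genes), none higher and 4 not called. Tdrd5 had 53.6, 45.6 and 116 normalized counts in OT-1 and 386, 237 and 396 in F5 (log2 difference −2.31, limma adjusted p = 0.0009). The cystine transporter Slc7a11 had 97.8, 105 and 74.8 in OT-1 and 302, 349.7 and 379 in F5 (log2 difference −1.89, limma adjusted p = 0.0005). The amino acid transporter Slc6a19 had 86.2, 87.1 and 95.5 in OT-1 and 273, 305 and 289 in F5 (log2 difference −1.68), and Glcci1 had 4815, 3901 and 4709 in OT-1 and 9075, 10037 and 11929 in F5 (log2 difference −1.21). Wdr78 (−0.87), Plxnd1 (−0.78) and Themis, which tunes TCR signals (−0.58), were called too. In 11 further genes of CD4+CD8+ thymocytes, among them Rag1, Rag2 and Dntt, the median was −0.56, but none was called. For 9 of those 11 the groups did not overlap, against 36.1% of all genes, and 4 were called lower when only the 2 groups compared were fitted. In these bulk samples fewer cells of an early state and less RNA per cell cannot be told apart.

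Of the sorting markers, Cd4 had 7980, 8114 and 7985 normalized counts in OT-1 and 12506, 14604 and 13502 in F5. The groups stood well apart, yet Cd4 was not called in the fit over all 9 groups (log2 difference −0.75, SE 0.50, limma adjusted p = 0.36). With only the 2 groups compared the adjusted p was 0.003. The same fit gave 0.013 for Rag1 and 0.0099 for Rag2. Cd8a had 17198, 16123 and 20020.5 in OT-1 and 31839, 33129 and 34599 in F5 (log2 difference −0.91, SE 0.12, limma adjusted p = 2e-05), and Cd8b1 had 7053, 6443 and 8632 in OT-1 and 13945, 15899.9 and 15937 in F5 (log2 difference −1.06, limma adjusted p = 2.8e-05). Transcripts of both CD8 chains were thus lower in OT-1. Cxcr4 had 1742, 1425 and 2898 in OT-1 and 2638, 3691 and 4185 in F5, with overlap (log2 difference −0.83, limma adjusted p = 0.22). Ccr7, whose protein was absent by the sort, had 863, 826 and 648 in OT-1 and 269.9, 186 and 139.8 in F5 (log2 difference 2.01, SE 0.35, limma adjusted p = 0.00034).

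Lineage factors gave 1 large difference. Zbtb7b, which encodes ThPOK, the factor of CD4 commitment, had 179.6, 254 and 72.7 normalized counts in OT-1, 8.59, 7.61 and 2.47 in F5 and 11, 20.1 and 3.71 in TG6 (log2 difference 4.51, SE 0.70, limma adjusted p = 0.00011). All 3 OT-1 libraries were above every F5 library. Lef1 had 9538, 9307 and 7428 in OT-1 and 7098, 5397 and 4279.5 in F5 (log2 difference 0.67, limma adjusted p = 0.027), and its call was lost under 5 alternatives. Ikzf1 differed by 0.39 and was called. Runx3, the factor of the CD8 lineage, differed by 0.87 (limma adjusted p = 0.069), Gata3 by 0.56 (limma adjusted p = 0.18) and Tox by 0.19 (limma adjusted p = 0.29). Of the 17 genes of the list, 3 were called higher (17.6%, against 7.81% of all genes), 2 lower (11.8%, against 4.88%) and 12 were not called.

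Part of the genes of maturation and thymic exit were higher in OT-1, and both populations were sorted as CCR7-. Of 24 genes, 12 were called higher (50%, against 7.81%) and 1 lower, with a median log2 difference of 0.48. S1pr1, the receptor that guides exit, had 2303, 1923 and 1456 normalized counts in OT-1 and 277, 75.4 and 65 in F5 (log2 difference 4.06, SE 0.43, limma adjusted p = 9.6e-07). F5 replicate 1 stood above the other F5 libraries but far below all OT-1 libraries. Gimap4, a GTPase of mature T cells, had 2503, 2236 and 2717 in OT-1 and 243, 138 and 176 in F5 (log2 difference 3.77, SE 0.17, limma adjusted p = 7.1e-13). Itgae, the CD103 integrin chain, had 174, 62.2 and 198 in OT-1 and 18.5, 21.3 and 13.6 in F5 (log2 difference 2.81). Il7r, the IL-7 receptor alpha chain, had 161, 183 and 88.7 in OT-1 and 21.4, 22.2 and 22.3 in F5 (log2 difference 2.59, limma adjusted p = 0.00029). Klf2, which drives S1pr1, differed by 1.88 and Foxo1 by 0.63, and both were called. Itga4 was the 1 member called lower (−0.80). Of 6 markers listed for mature CD8 thymocytes, 4 of them in this list too, all 6 were called higher, and their summed level was 10852 to 12259.8 normalized counts in OT-1 and 4095 to 5406 in F5.

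The same was asked with genes chosen in a line outside the comparison. From TG6, which shares no library with it, the 200 called genes with the largest rise from early to late positive selection and the 200 with the largest fall were taken. Only genes with a mean of at least 100 in the higher TG6 stage were eligible. The calls in TG6 and those between OT-1 and F5 came from 1 fit and share its estimate of the spread. Late positive selection has 2 TG6 libraries. Of the rising genes, 163 had a higher mean log2 value in OT-1 whatever their p, 107 were called higher (53.5%, against 7.81% of all genes) and 6 were called lower. Their median difference was 1.05. Of the falling genes, 49 were higher in OT-1, 5 were called higher, 8 were called lower (4%, against 4.88%), and the median was −0.21. Of these 200 falling genes, 49 were also in the lists of DNA replication and mitosis. The lists hold the largest changes only. Across all 16372 genes tested, the difference between OT-1 and F5 correlated at 0.203 (Pearson) with the TG6 change from early to late. With lists from TG6 early to mature CD8SP the medians were 1.44 and −0.55, with 45 of the 200 falling genes called lower (22.5%). Cd7, at the top of the rising list, had a mean of 76.2 in OT-1 and 5.62 in F5.

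**Figure D3:**
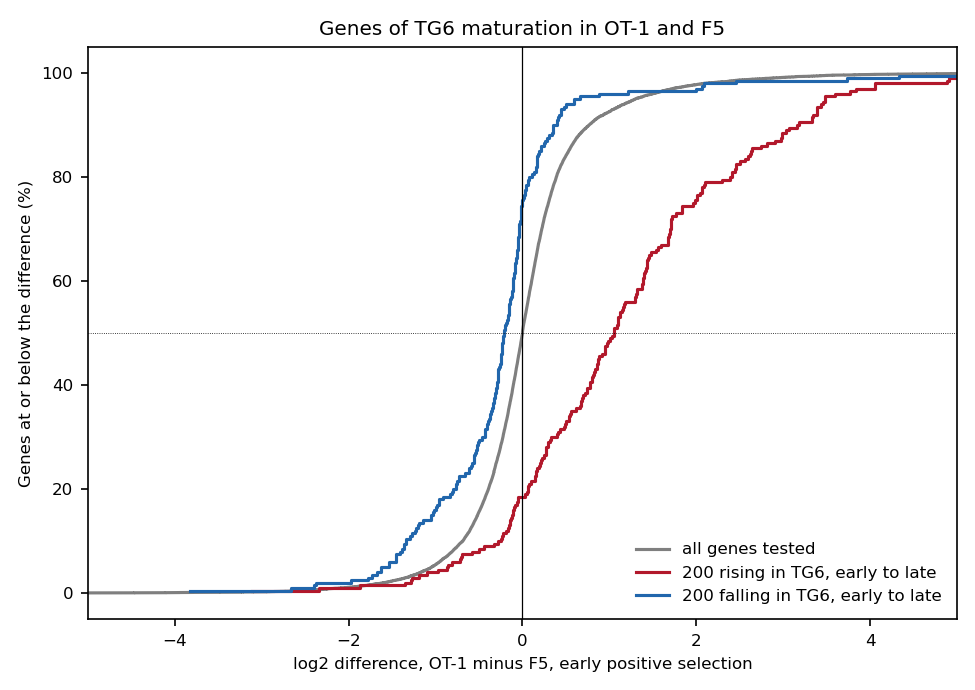
Cumulative share of genes (%, y axis) by the log2 difference between OT-1 and F5 at early positive selection (x axis), for all genes tested (grey) and for the 200 genes that rose (red) or fell (blue) most in TG6 from early to late positive selection. The red curve lies to the right, with a median of 1.05, and the blue curve slightly to the left, with a median of −0.21. The x axis ends at −5 and 5, and genes beyond it are not drawn.

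Of 8 effector genes that the study picked from these same samples, 5 were called higher in OT-1 (62.5%, against 7.81% of all genes) and none lower, which is not independent evidence of their direction. They were Ccr8 and Plch1, given above, Il1r1 with 54.3, 35.7 and 62.8 normalized counts in OT-1 and 0, 2.72 and 0.909 in F5, Cd40lg, and the chemokine receptor Ccr4 (log2 difference 2.16). Of 24 cytokine receptor and signalling genes, 6 were called higher (25%, against 7.81% of all genes) and 1 lower, and the median was 0.10 (−0.00 with total scaling). Besides Il6ra and Il7r, the IL-2 and IL-15 receptor beta chain Il2rb was higher, with 182, 140.5 and 136 in OT-1 and 16.4, 31.7 and 11.6 in F5 (log2 difference 2.99, SE 0.30, limma adjusted p = 4.2e-07). Tgfbr2 was called higher (0.72) and Stat6 lower (−0.56). Cish, a cytokine feedback inhibitor, had 26.6, 49.8 and 29.3 in OT-1 and 46.7, 1.56 and 2.76 in F5, with F5 replicate 1 within the OT-1 range. Its call was lost under 13 of 18 alternatives.

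Markers of other cell types moved with the comparison, and their counts below stand against 7.81% of all genes called higher and 4.88% called lower. Of the 4 gamma delta T cell markers tested, 3 were called higher in OT-1, namely Cd163l1, Sox13 and Blk, with 361, 302 and 338 normalized counts in OT-1 and 13.6, 28 and 8.74 in F5. Trdc, the delta constant gene, was not called (log2 difference −0.41, limma adjusted p = 0.18), with 7406, 6541 and 7244 in OT-1 and 9991, 8769 and 9406 in F5. The gamma constant gene Tcrg-C1, looked up after the values were seen, had 256, 102 and 275 in OT-1 and 6.82, 34.8 and 6.79 in F5 (log2 difference 3.90, limma adjusted p = 0.00012). Of 7 macrophage markers tested, 5 were called higher, and the summed level of the list was 116 to 319.8 normalized counts in OT-1 and 44.4 to 110 in F5. C1qa, a complement gene of macrophages, had 25, 28.1 and 6.9 in OT-1 and 0, 1.93 and 0.971 in F5. These levels were low throughout, and OT-1 replicate 3 lay between the other OT-1 libraries and F5. Of 7 dendritic cell markers, 3 were called higher (Siglech, Itgax and Clec9a), and the summed level was 787 to 848 normalized counts in OT-1 and 757 to 789 in F5. Of 6 NK or innate lymphoid markers, 3 were called higher, with Ncr1 at 0 in all 6 libraries and a summed level of 2004 to 3152 normalized counts in OT-1 and 657 to 826 in F5. Gzma made up most of it, with 2343, 1803 and 2895 in OT-1 and 544, 532 and 725 in F5. Of 6 markers of double negative thymocytes, the 3 Notch-related genes were called higher. Hes1 had 1762, 1574 and 739.7 in OT-1 and 181, 114 and 40.7 in F5 (log2 difference 3.73), Dtx1 differed by 1.73 and Notch3 by 0.77, whereas Il2ra (−0.49), Kit (−0.10) and Cd44 (−0.19) were not called. The summed level of that list was 5299 to 6590.3 normalized counts in OT-1 and 2444 to 2814 in F5. Of 6 B cell markers, Cd79b (−1.23) and Ighm (−0.44) were called lower, and the summed level was 5878 to 7843 normalized counts in OT-1 and 8018 to 10408 in F5. None of 5 erythroid markers was called (336 to 1280.5 normalized counts in OT-1 and 33.9 to 682 in F5). Of 5 epithelial markers Epcam was called lower (−1.20), with Krt5 and Foxn1 at 0 and a summed level of 512 to 563 normalized counts in OT-1 and 646 to 658 in F5. Both genotypes lack recombination, so the names gamma delta T cell and B cell label the lists and do not name cells found here. The part of other cells in the differences above was not tested.

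Genes of survival and death were split. Of 16 tested, 3 were called higher in OT-1 and 3 lower (18.8% each, against 7.81% and 4.88% of all genes). The pro-apoptotic Bmf had 379, 292 and 314 normalized counts in OT-1 and 1798, 1121 and 1939 in F5 (log2 difference −2.27, SE 0.35, limma adjusted p = 9.7e-05), whereas Bbc3, which encodes the pro-apoptotic PUMA, had 365, 614 and 446 in OT-1 and 121, 104 and 232 in F5 (log2 difference 1.69, limma adjusted p = 0.023). Of the protective genes, Bcl2 had 1483, 1429.8 and 1368 in OT-1 and 870.4, 924 and 771 in F5 (log2 difference 0.74, limma adjusted p = 0.0065), and Bcl2l1, which protects CD4+CD8+ thymocytes, had 1207, 1152 and 1367 in OT-1 and 1794, 2012 and 2049 in F5 (log2 difference −0.65, limma adjusted p = 0.031). The pro-apoptotic Bax was called higher (0.43) and the death receptor Fas lower (−0.55). Called protective and pro-apoptotic genes thus lay in both directions. Bbc3 and Bcl2l1 each lost the call under 4 alternatives, and without OT-1 replicate 2 or without F5 replicate 2 the list had 1 higher and 2 lower calls.

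Calls among the voltage-gated channel genes examined lay mostly in a list chosen for its direction. Of 12 genes that the study picked from these same samples for higher levels at low self-reactivity, which is not independent evidence of their direction, 6 were called lower (50%, against 4.88% of all genes) and none higher, with a median log2 difference of −0.62. The calcium channel Cacna1e had 71.2, 57.7 and 74.2 normalized counts in OT-1 and 183, 238 and 188 in F5 (log2 difference −1.57, limma adjusted p = 0.0019). The potassium channels Kcna2 (−1.28), Kcna3 (−0.70), Kcnh2 (−0.66) and Kcnh3 (−0.58) were called lower too. Of the 79 voltage-gated channel genes defined by symbol, 31 passed the filter on low values. Among them these 6 were called lower, so no voltage-gated gene outside the picked list was, and the median of the 31 was −0.30. With no filter the median of the family was 0. However, 27 of the 79 genes were at 0 in all 6 libraries, and a gene at 0 throughout has a difference of 0. The 1 gene called higher was Cacna1d, with 125, 147 and 104 in OT-1 and 75, 57.1 and 41.8 in F5 (log2 difference 1.12, limma adjusted p = 0.0029). Without OT-1 replicate 2, 2 of the 6 lower calls were left, Cacna1e and Kcna2. Tmie, which the study also counts as an ion channel gene, lies outside both lists and was called lower. Its mean was 5.67 normalized counts in OT-1 and 56.3 in F5 (log2 difference −3.11, limma adjusted p = 5.1e-06). The study added it to its channel list because it differed with self-reactivity, so its direction is not independent evidence either.

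Nearly all ribosomal protein genes were higher in OT-1. Of 82 cytosolic ribosomal proteins, 74 were called higher in OT-1 (90.2%, against 7.81% of all genes), none lower, and the median log2 difference was 0.55. They took 4.57 to 4.94% of all normalized counts in the OT-1 libraries and 3.27 to 3.48% in the F5 libraries, with no overlap. With total scaling the median was 0.45 and 72 were still called. Rpsa had 27085, 29683 and 27456 normalized counts in OT-1 and 14044, 13872 and 14187 in F5 (log2 difference 1.00, SE 0.09, limma adjusted p = 1.6e-07), although ribosomal protein genes share reads with many pseudogenes. Ribosome biogenesis gave 10 of 42 called higher (23.8%, against 7.81% of all genes), none lower and a median of 0.32, led by Rrp12 with 517, 536 and 379.6 in OT-1 and 259, 212 and 194 in F5 (log2 difference 1.10). Of 53 translation initiation factors, 9 were called higher (17%) by 0.26 to 0.44, and 2 were called lower (3.77%, against 4.88% of all genes), Eif3j1 (−1.41) and Eif4e3 (−1.05). With total scaling these counts were 5 and 0 for ribosome biogenesis and 3 and 3 for initiation factors, and with only the 2 groups compared 17 initiation factors were called higher. Leaving out OT-1 replicate 1, OT-1 replicate 2, F5 replicate 2 or F5 replicate 3 left 3, 2, 4 and 2 higher calls for biogenesis and 3, 1, 4 and 3 for initiation factors, whereas at least 72 ribosomal proteins were called under every alternative.

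Genes of glycolysis were called higher in OT-1 more often than genes overall. Of 19 glycolytic genes, 9 were called higher in OT-1 (47.4%, against 7.81%) and 1 lower, with a median log2 difference of 0.55. Hexokinase Hk2 had 272, 394 and 132 normalized counts in OT-1 and 51.7, 49.7 and 23.9 in F5 (log2 difference 2.58, limma adjusted p = 0.003). The glucose transporter Slc2a3 had 954, 1308 and 1119.6 in OT-1 and 442, 418 and 336 in F5 (log2 difference 1.50, SE 0.14, limma adjusted p = 1.2e-07), and Slc2a1 had 696, 788 and 469 in OT-1 and 396, 268 and 327 in F5 (log2 difference 0.96). Slc2a1 was not called without OT-1 replicate 1, OT-1 replicate 2 or F5 replicate 2. Pkm (0.89), Pgam1 (0.84), Ldha (0.82), Aldoa (0.76), Pgk1 (0.55) and Gpi1 (0.50) were called higher and Pfkp lower (−0.47). Nuclear-encoded subunits of oxidative phosphorylation gave 10 of 76 called higher (13.2%, against 7.81% of all genes), none lower and a median of 0.34. With total scaling 4 were called, without OT-1 replicate 1, OT-1 replicate 2, F5 replicate 2 or F5 replicate 3 there were 4, 2, 3 and 2, and with only the 2 groups compared 42. Of 15 mitochondrially encoded genes, a list chosen after the values were seen, 11 were called higher with a median of 0.90. Without those same libraries 6, 4, 6 and 6 of them were called. Their share of all normalized counts was 2.55 to 3.19% in OT-1 and 1.75 to 2.22% in F5. Mitochondrial ribosomal proteins gave 5 of 76 higher (6.58%, against 7.81%) and 1 lower. Their higher calls were 12 with only the 2 groups compared, 1 with total scaling, 0 without OT-1 replicate 2 or F5 replicate 2, 1 without OT-1 replicate 1 or F5 replicate 3, 2 without F5 replicate 1 and 3 without OT-1 replicate 3.

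Cell cycle genes gave few calls, with 1 of 51 called higher in each of 2 lists (1.96%, against 7.81% of all genes). Of 51 genes of S phase and DNA replication, 45 were higher in OT-1 whatever their p, with a median log2 difference of 0.31, but only Ung was called (0.80), and it lost its call under 12 alternatives. With only the 2 groups compared 19 were called higher. Of 51 genes of G2 and mitosis, 13 were higher, the median was −0.12, and only Pttg1 was called (0.51), which lost its call under 6. Sterol and fatty acid synthesis gave 2 of 29 higher and 2 lower (6.9% each, against 7.81% and 4.88% of all genes), shares near those of all genes. The higher ones were Mvd, an enzyme of the mevalonate pathway, with 333, 341 and 386 normalized counts in OT-1 and 159, 186 and 141 in F5 (log2 difference 1.13, limma adjusted p = 2.9e-06), and Fasn (0.68). Tm7sf2 (−0.62) and Dhcr7 (−0.47), later steps of cholesterol synthesis, were lower. Tm7sf2 was not called without any 1 of the 6 libraries, Fasn lost its call under 4 alternatives and Dhcr7 without F5 replicate 2, where the list had 1 higher and 0 lower calls.

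Interferon-stimulated genes were called higher in OT-1 more often than genes overall. Of 32, 18 were called higher (56.2%, against 7.81%), 2 lower and 12 not called, with a median log2 difference of 0.97. These genes are read through promoter elements bound by IRF factors and their partners, whose core is 2 GAAA copies 2 bases apart. Promoter sequences of mouse RefSeq (GRCm38.p6) are shown for 3 of the 18 that hold this core within 250 bases before the start. They are stretches of the strand of the gene, 5′ to 3′, with every base of a match to this core (GAAA, any 2 bases, GAAA) on either strand in capitals, where matches may overlap.
Oas1a: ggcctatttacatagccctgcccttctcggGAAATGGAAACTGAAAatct
Ifit1: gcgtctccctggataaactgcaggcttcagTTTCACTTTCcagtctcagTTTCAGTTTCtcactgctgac
Isg15: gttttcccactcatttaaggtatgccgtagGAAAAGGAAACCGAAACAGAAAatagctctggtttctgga
The Oas1a stretch lies at chr5:120907526-120907575, that of Ifit1 at chr19:34640755-34640824 and that of Isg15 at chr4:156200857-156200926, with Oas1a and Isg15 on the minus strand. A promoter was at hand for 23 of the 32 genes, under 80% of the list, which voids a comparison of shares. As a description, the core was held by 7 of the 13 promoters of genes called higher, by 5 of the 10 of the other list members and by 2.98% of all 32851 RefSeq promoters of this length. A match is not a bound site.

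Oas1a, an antiviral synthetase, had 45, 37.2 and 25.6 normalized counts in OT-1, 0 in all 3 F5 libraries and 29.7, 16.9 and 27.1 in TG6. Against the floor of 3 it was at least 12-fold higher in OT-1 than in F5. Ifit1 had 111, 95.4 and 123 in OT-1, 4.87, 14.5 and 13.6 in F5 and 36.6, 41.7 and 29 in TG6 (log2 difference between OT-1 and F5 3.33, SE 0.34, limma adjusted p = 5.8e-07). Rtp4 had 247, 219 and 235 in OT-1, 30.2, 14.5 and 22.3 in F5 and 135, 119 and 88.1 in TG6 (log2 difference 3.38, limma adjusted p = 1.2e-07). In all 3 genes the mean of TG6 lay between F5 and OT-1, so that F5 was the lowest line. Oasl2 had 69.1, 64.3 and 42.6 in OT-1 and 0.809, 2.36 and 27.4 in F5, with F5 replicate 3 close to the OT-1 range (log2 difference 3.39, limma adjusted p = 0.0047). With only the 2 groups compared, Oasl2 was not called (limma adjusted p = 0.072). Isg15 (2.39), Mx1 (2.03), Irf7 (1.96), Rsad2 (1.60), Ifit3 (1.53) and Irf9 (1.54) were called higher as well. Igtp (−0.61) and Stat2 (−0.51) were the 2 called lower, and neither was called without OT-1 replicate 2, F5 replicate 2 or F5 replicate 3. At the mature CD8SP stage, the differences of Oas1a, Ifit1 and Rtp4 were 5.83, 4.54 and 4.84 on the log2 scale, and all 3 were called.

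Genes of MHC class I and peptide loading had 4 of 21 called higher (19%, against 7.81% of all genes), 1 lower (4.76%, against 4.88%) and a median log2 difference of 0.14. The chaperone Calr had 5903, 6823 and 7347 normalized counts in OT-1 and 3558, 3651 and 3621 in F5 (log2 difference 0.88, SE 0.12, limma adjusted p = 3e-05), and Pdia3 had 5963, 6230.4 and 7379 in OT-1 and 3759, 3959.5 and 3988 in F5 (log2 difference 0.74). Nlrc5, the transactivator of MHC class I genes, had 556, 576 and 370 in OT-1 and 263, 312 and 239 in F5 (log2 difference 0.86, limma adjusted p = 0.0067). The peptide transporter Tap2 was lower, with 3244, 3358 and 3339 in OT-1 and 4921, 4701 and 4906 in F5 (log2 difference −0.55, limma adjusted p = 5.4e-05). H2-K1 differed by 0.33 (limma adjusted p = 0.19), H2-D1 by −0.23 (limma adjusted p = 0.38) and B2m by 0.14 (limma adjusted p = 0.76).

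**Figure D4:**
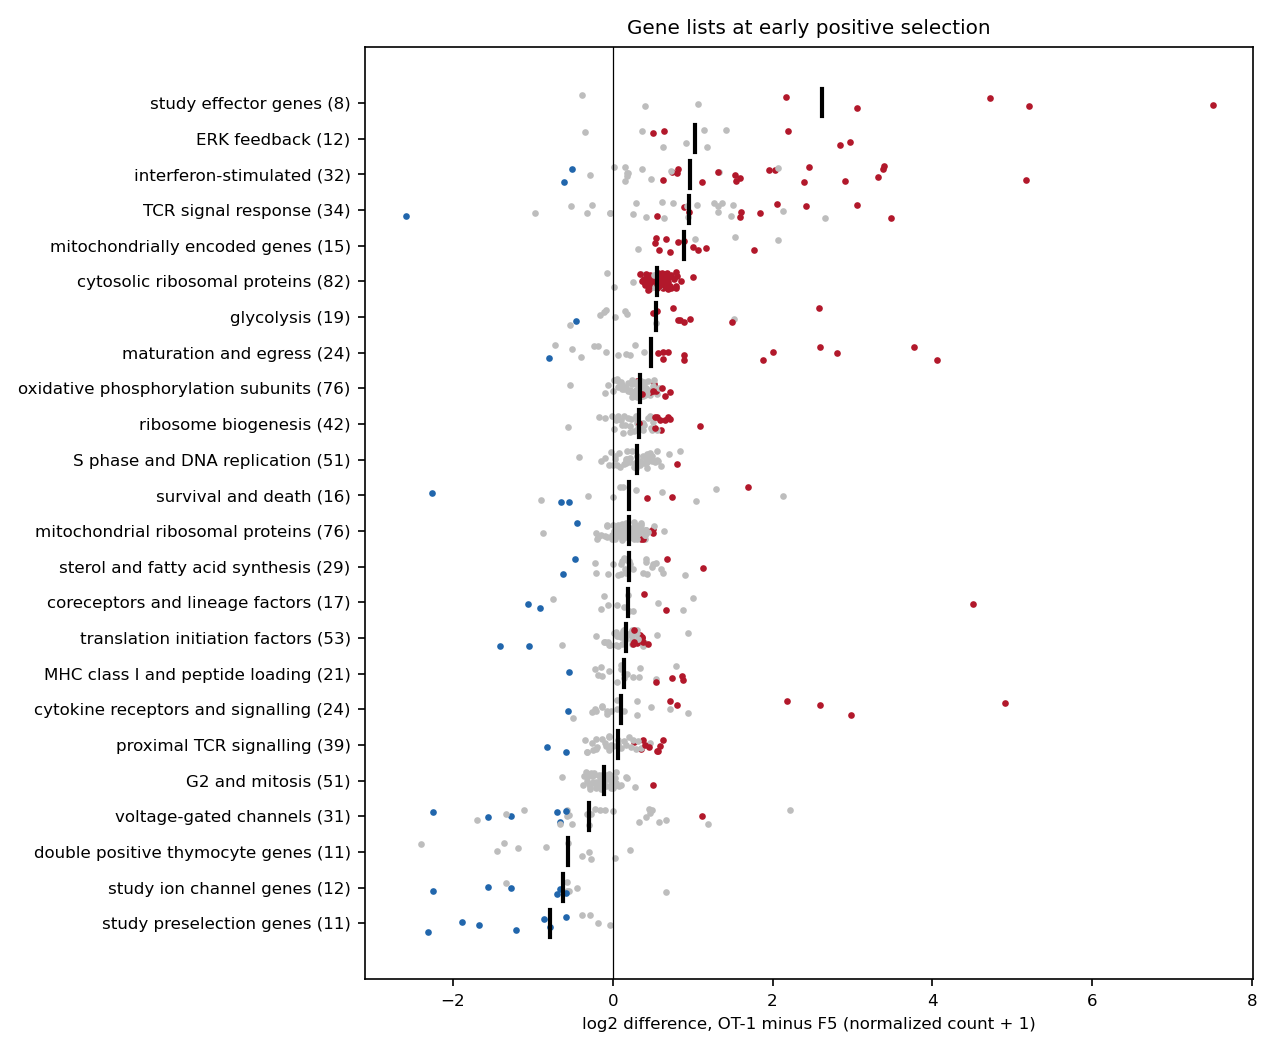
Log2 difference between OT-1 and F5 (x axis) of each tested member of 24 gene lists (rows, with the number of genes tested), with genes called higher in OT-1 in red, called lower in blue and not called in grey, and the median of each list as a black bar. Ribosomal proteins form a narrow band at a median of 0.55, the preselection genes lie lowest at a median of −0.78, and the replication and mitosis lists hold 1 called gene each.

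Both lines carry a targeted Rag allele on chromosome 2, so genes near it were described by position. Within 5 Mb of the start of Rag1, 6 of 43 genes were called (14%, against 12.7% of all genes). D430041D05Rik, 2500 kb away, had 1906, 1828 and 1885 normalized counts in OT-1, 55.4, 16.5 and 60.3 in F5 and a mean of 780.2 in TG6 (log2 difference 5.58, SE 0.70, limma adjusted p = 9.6e-06). Ldlrad3, 312 kb away, had 64.1, 75.8 and 56.4 in OT-1 and 200.4, 216 and 238 in F5 (log2 difference −1.73, limma adjusted p = 0.00083). B230118H07Rik was called lower (−1.34), but lost its call under 8 alternatives. Within 2 Mb, 4 of 19 were called (21.1%), all lower, and within 10 Mb 12 of 87 (13.8%).

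Several of the largest differences sat side by side, which was noticed after the values were seen. Around Ltk (chromosome 2, 119751320 to 119760431), also on chromosome 2, 31 of 105 genes within 5 Mb were called (29.5%, against 12.7%), 15 higher and 16 lower. They included the receptor kinase Tyro3 (2.41), Bmf (−2.27), Jmjd7 (−2.55), the nucleoside transporter Slc28a2 (−2.37), Gm14085 (−4.12) and Sqrdl (−4.47). Tyro3 had 328, 329 and 364 in OT-1 and 64.1, 60.6 and 64.7 in F5, and Gm14085 had 167, 109 and 142 in OT-1 and 2155, 3076 and 2089 in F5, with no overlap in either. Plch1 lies 455 kb from Mme on chromosome 3, and within 2 Mb of Mme 5 of 15 genes were called, all higher in OT-1, whereas within 5 Mb 6 of 51 were (11.8%). Cdk19os lies 61 kb from Amd1 on chromosome 10, where 11 of 52 genes within 5 Mb were called (21.2%), 4 higher and 7 lower. Olfr524 and Cd163l1 are both on chromosome 7, with starts at 140198499 and 140218267. For these clusters too, the receptor and the origin of the mice cannot be told apart.

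**Figure D5:**
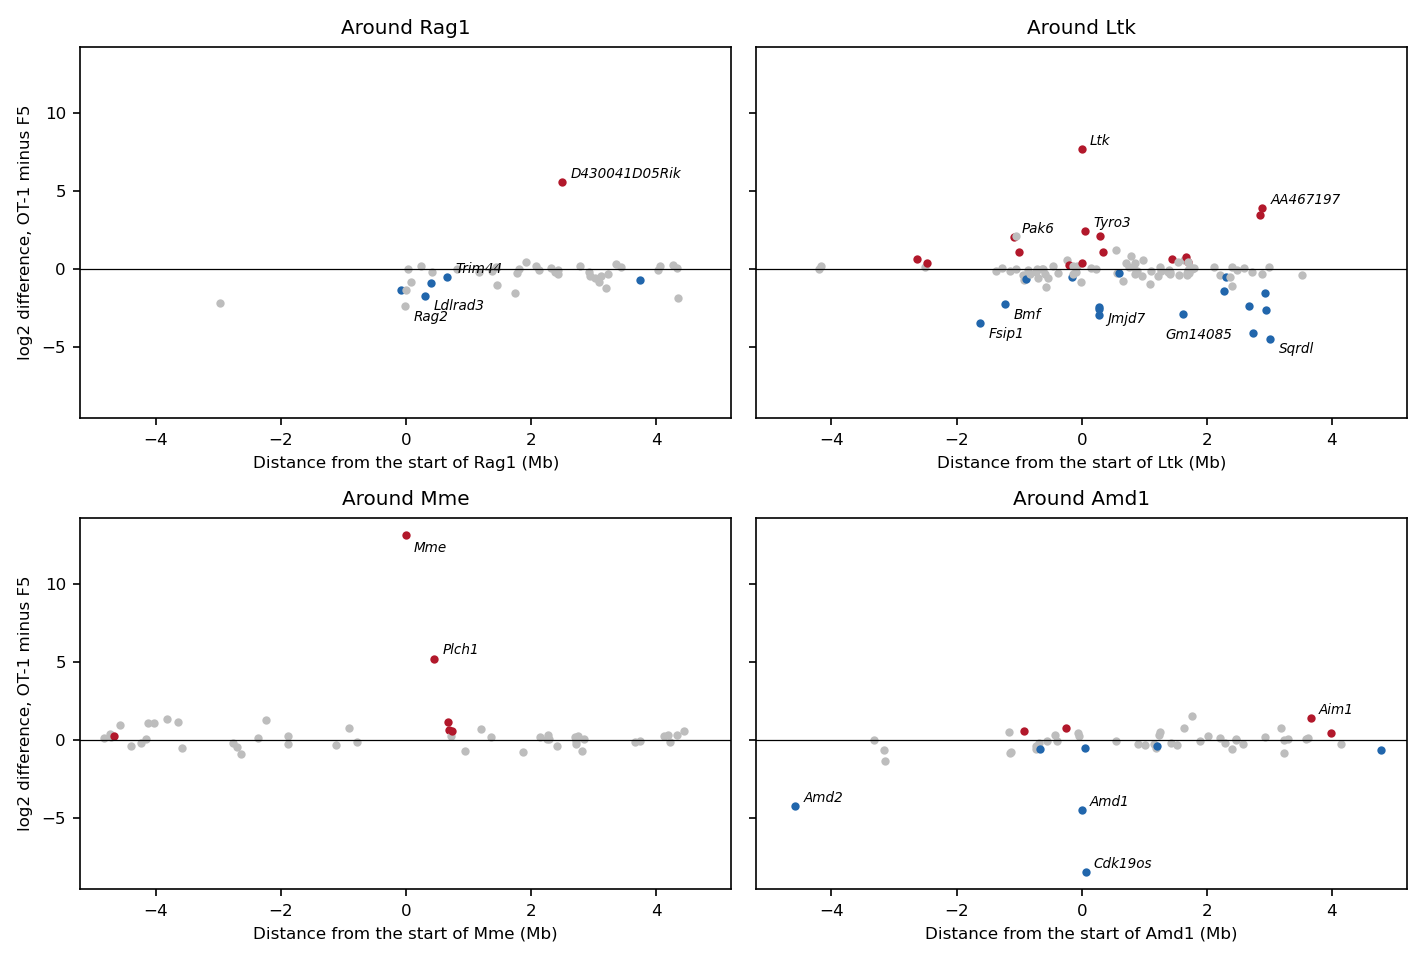
Log2 difference between OT-1 and F5 (y axis) of the genes tested within 5 Mb (x axis, distance in Mb) of the starts of Rag1, Ltk, Mme and Amd1, with called genes in red (higher in OT-1) or blue (lower). The window around Ltk holds 31 called genes of both directions, that around Rag1 holds 6, and the windows around Mme and Amd1 hold 1 or 2 very large differences beside the gene they are centred on.

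The differences were also compared with those of the later stages, where 24% (late positive selection) and 23.3% (mature CD8SP) of all genes were called in either direction. Of the 2077 called genes, 1414 were called in the same direction at late positive selection, 1237 in mature CD8SP thymocytes and 1067 at both, while 466 were not called at either later stage. These comparisons use other sorted libraries but may share mice. The size of the difference between the lines changed from early positive selection to mature CD8SP for 269 genes (1.64% of those tested), and between early and late positive selection for 275 genes (1.68%). The first count was 749 with the replicate number within a line, assumed to stand for the animal, as a random block and 155 to 345 without 1 library, with 155 to 178 without OT-1 replicate 1 or 2 or F5 replicate 2 or 3 of the early stage, or without OT-1 replicate 1 or 2 or F5 replicate 1 or 3 of mature CD8SP. S1pr1 differed by 4.06 at early positive selection and by 0.84 in mature CD8SP thymocytes, where it was not called (limma adjusted p = 0.17). Slc2a3 went from 1.50 to 0.22, and Gimap4 from 3.77 to 1.08. Irf4 went the other way, from 2.41 to 4.32. For these 4 genes the test of the change between stages passed, with limma adjusted p of 0.0058, 0.00089, 1.8e-06 and 0.012.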

How the data were processed

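Bulk RNA-seq libraries of sorted thymocytes were read from 1 deposited table of normalized counts, a signal that the authors made by trimming reads (Trimmomatic 0.32), aligning them to mm10 (Bowtie2 2.3.2), estimating expected counts per gene (RSEM 1.2.31) and dividing each library by a DESeq2 median-of-ratios size factor, as the submitters' processing notes and the study's methods give it. The annotation used for counting and its strandedness are not given in the sources used here. The study tested counts, whereas the deposited values are normalized and not whole, and 43.3 to 43.9% of them lay within 0.01 of a whole multiple of the smallest step, so reads were not recovered. Values were therefore tested as log2(value + 1) with limma 3.58.1 in R 4.3.3, with a trended prior, no covariate, all 9 groups in 1 fit and Benjamini-Hochberg adjustment over all genes tested. A difference on this scale understates that of low genes. The fit was also run on simulated data with normal noise of the same spread in every group. That run could not test the effect of unequal spread between groups. A gene was tested if it reached 10 in at least 2 libraries and called at an adjusted p under 0.05. Where a line was at 0 in all its libraries, a fold was taken against a floor of 3 normalized counts, which covers counting error only.

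Named genes were the 10 called genes per direction with the largest difference, no overlap and a mean of at least 100 in the higher line, receptor segments and clone names left out, the top 3 receptor segments per direction, up to 4 called members per list with a mean of at least 20, the 3 largest calls within 5 Mb of Rag1, and 12 genes always shown (Rag1, Rag2, Cd4, Cd8a, Cxcr4, Ccr7, Cd5, Cd69, Nr4a1, Egr1, Egr2 and Myc). Other genes are named as members of a list or because their values drew attention, after those values were seen. The members and lists were chosen with earlier results of these data known. The mitochondrially encoded list, the windows around Ltk and Amd1, the promoter search and the omission of 2 libraries together were added after the values were seen. Positions are from GENCODE vM21 (GRCm38), matched by symbol or RefSeq synonym for 95.2% of the genes tested. Some members of the lists are counted but not reported here by name. Levels were not divided by gene length and are not compared between genes. Alternatives changed the pseudocount, the filter, the scaling, the variance prior, the replicate block, the groups fitted and each library in turn.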

Additional observations from a re-analysis of the deposited data

Results flagged for a closer look

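The test of whether the difference between OT-1 and F5 changed from early positive selection to mature CD8SP passed for 11 of the named genes (limma adjusted p, Benjamini-Hochberg over all genes tested), and the values given here are the early minus the mature difference on the log2 scale. Of these, 10 differed more at the early stage. The named genes were chosen for their early differences, which favours this direction, and over all 269 genes that passed, the signed difference of OT-1 minus F5 was higher early than in mature cells for 135. S1pr1, the exit receptor, changed by 3.22 (adjusted p = 0.0058), from 4.06 to 0.84. Gimap4 changed by 2.69 (adjusted p = 1.8e-06), from 3.77 to 1.08, and Il2rb, the beta chain of the IL-2 and IL-15 receptors, by 2.19 (adjusted p = 0.007), from 2.99 to 0.80. Il6ra changed by 2.51 (adjusted p = 0.00089), from 4.91 to 2.40, and was called at both stages. The glucose transporter Slc2a3 changed by 1.27 (adjusted p = 0.00089), from 1.50 to 0.22, and Mvd of the mevalonate pathway by 1.17 (adjusted p = 0.0011), from 1.13 to −0.04. S1pr1, Il2rb, Mvd and Slc2a3 were not called in mature CD8SP thymocytes.

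In F5, Mme, Trbv12-1 and Adam19 were at or near 0 at early positive selection, so the sizes for these 3 genes depend on the pseudocount. Mme changed by 4.27 (adjusted p = 0.0019), from 13.12 to 8.85, and the receptor segment Trbv12-1 by 5.45 (adjusted p = 0.00096), from 14.80 to 9.35. Adam19 changed by 3.89 (adjusted p = 0.0077), from 7.40 to 3.50, and Cd163l1 by 2.49 (adjusted p = 0.015), from 6.97 to 4.47. All 4 were called in the same direction at both stages.

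Irf4 alone among the 11 differed more in mature cells, with a change of −1.90 (adjusted p = 0.012), from 2.41 to 4.32. With 3 libraries per group no library was tested for standing apart within its group.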

How the results depend on the processing

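No named gene turned its direction under any alternative. Rag1, Rag2 and Cd4 were called only where just the 2 groups compared were fitted, and 158 of 2013 values of named genes under the alternatives lost the call. The 2077 calls became 863 where a log2 difference over 1 was also asked for, and 1282 to 1905 without 1 of the 6 libraries (1956 to 2159 without 1 mature CD8SP library). They ranged from 1813 with no filter to 2343 with only the 2 groups compared, of which 1630 were shared, and were 2310 with total scaling and 2135 with quantile normalization. The higher share of calls was 61.5%, and 43.7% with total scaling. Medians of 3 lists changed sign or reached 0, for proximal TCR signalling (−0.04) and cytokine receptors (−0.00) with total scaling and for voltage-gated channels with no filter (0). With no filter, genes at 0 in all 6 libraries can enter that last median. The 269 genes whose difference changed between early positive selection and mature CD8SP became 749 with the replicate number within a line, assumed to stand for the animal, as a random replicate block and 155 to 345 without 1 library. The TG6 rising list had a median of 1.43 with 100 genes and 1.44 from early to mature CD8SP, where the falling list had −0.55. The cause of these changes was not tested.

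Same-numbered libraries of the 2 lines had deviations that correlated at 0.0326, −0.0214 and 0.11, so the numbers do not pair them. With the replicate number as a block 2214 genes were called, 2025 of them shared, and with the number within a line as a random block 2125. Depth limits low genes, since 1 read was worth close to 1 normalized count, and no count-based interval was possible.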
